A study of Mus musculus with 44 samples.

Results

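The late response of the young cochlear nucleus was measured in mice that lost 1 cochlea at postnatal day 7 (P7) and were examined 48 h later. The 6 arrays with this age and time in their titles, 3 from the deafferented nucleus and 3 from the control nucleus, were taken from a series of 44 arrays. The control is the nucleus of the opposite side, which kept its cochlea, so both groups come from operated mice and no unoperated mice enter the comparison. Strain, sex and the number of animals per pool are not given in the sources used here. By the series design the replicates are separate pools of tissue. With the arrays matched by number, the p-values rest on how much the difference between the sides varies between pairs of arrays. This spread is estimated over all 44 arrays, not over the 6 alone.

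The whole series covers cochlear removal at P7 and P21, with total RNA from both nuclei after 6, 12, 24 and 48 h. The P7 nuclei of 24 h and the P21 nuclei of 48 h, with 6 arrays each, share no array with the P7 nuclei of 48 h and are used for comparison. The question of the design is which genes respond to loss of the cochlea at each age.

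The cochlear nucleus is the auditory relay in the brainstem that its nerve reaches first, and its neurons receive glutamatergic synapses from the auditory nerve. Removal of the cochlea cuts off this input by destroying the nerve's cell bodies, and the severed axons then degenerate inside the nucleus. Neurons of the young mammalian nucleus depend on this input for survival, a dependence that is lost as the animal matures. Microglia, the resident phagocytes of the brain, and astrocytes, which enlarge and make the filament protein GFAP after injury, respond where axons degenerate.

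Values are log2 expression per probe set (a group of array probes against 1 transcript region), and a signal of log2 5 was used as the limit of background. Of 22626 probe sets, 15323 passed this level in at least 2 of the 44 arrays, and 8886 genes were represented by the brightest of their probe sets. Each difference is the mean over 3 pairs of arrays with the same replicate number, with the SE of limma's fit over all 44 arrays, and a call needed an adjusted p under 0.05 (Benjamini-Hochberg over all 15323). The arrays were matched by number because replicate 3 stood apart on both sides. Whether the 2 nuclei of a replicate number come from the same mice is not stated in the labels. Within replicates 1 and 2 the numbers did not order the arrays, since the deviations from the group means correlated with r = 0.493 between control 2 and deafferented array 1 and 0.380 between control 1 and deafferented array 2, against 0.424 and 0.230 for the same-numbered arrays. Those of replicate 3 correlated with r = 0.622 with each other and below 0 with all others. Arrays of replicates 1 and 2 correlated with each other with r between 0.9931 and 0.9957, replicate 3 arrays correlated with them with r between 0.979 and 0.9815, and the replicate 3 arrays of both sides with r = 0.987. Against the mean of the other replicates of its side, replicate 3 was at least 1 log2 unit apart in 1230 probe sets on the control side and 1285 on the deafferented side, compared with 203 to 376 for the other replicates. With 3 arrays a side, their number sets how precise each value is.

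The dissected tissue was checked against neuron markers of the region. Of 17 genes listed for brainstem and cochlear nucleus neurons 12 were on the array, and 9 were above log2 5 in all 6 arrays. Among them were Calb2, which encodes the calcium-binding protein calretinin, at log2 8.69 to 9.64, Kcna1, a potassium channel of fast-firing neurons, at 8.77 to 9.17, and Syt2, the synaptotagmin of fast-releasing terminals, at 8.65 to 9.31. Slc6a5, the glycine transporter of inhibitory neurons, was below background in all 6 arrays at 2.67 to 3.56, and Slc17a7, the vesicular glutamate transporter of the auditory nerve, was not analysed here. None of the 12 passed the test between the sides. Their median difference was -0.05, against 0.03 over all genes, and those of Calb2, Kcna1 and Syt2 lay between -0.02 and 0.01.

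At 48 h a single probe set of 15323 passed the test (0.00653%), or 1 gene of 8886 (0.0113%), for Uhrf1, and it was higher in the deafferented nucleus. UHRF1 binds hemimethylated DNA at replication forks and is needed to keep DNA methylation through cell division. Its levels were 4.47, 3.55 and 4.14 in the 3 control arrays and 5.18, 5.20 and 5.75 in the deafferented arrays of the same numbers. All 3 controls were below the background limit and all 3 deafferented arrays above it, with no overlap. Uhrf1 rose by 1.32 ± 0.202 on the log2 scale (SE, n = 3 pairs, limma adjusted p = 0.0269). As the controls are within background, the size of the rise is uncertain.

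The Uhrf1 call depended on the fit and on single pairs. Without the replicate block, that is with the arrays unmatched, the adjusted p was 1, and with the 6 arrays fitted alone it was 0.78. Without replicate 2 the adjusted p was 0.201 with a change of 1.16, and without replicate 3 it was 0.724 with a change of 1.17.

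Uhrf1 was also followed through the other ages and times. At P7 24 h the controls were at 4.49, 4.92 and 5.97 and the deafferented arrays at 5.50, 5.88 and 6.00, so that the sides overlapped and the difference of 0.67 was not called (adjusted p = 0.0924). At P21 48 h the controls were at 3.12, 3.19 and 3.46 and the deafferented arrays at 2.88, 2.92 and 3.49, all below background. The difference between the effects at the 2 ages, -1.48, did not pass (adjusted p = 0.106).

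**Figure D1:**
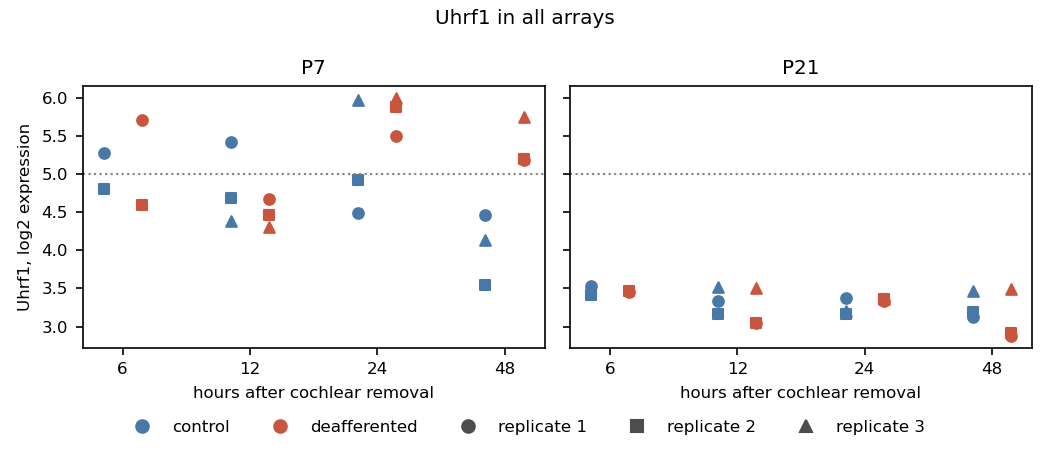
Uhrf1 log2 expression in each of the 44 arrays, by hours after cochlear removal, with P7 on the left and P21 on the right. Blue points are control and red points deafferented nuclei, shapes mark the replicate number, and the dotted line is the background limit of log2 5. At P7 48 h the control arrays lie at 3.55 to 4.47 and the deafferented arrays at 5.18 to 5.75, whereas all P21 arrays lie below the limit.

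No decrease was called. At an unadjusted p under 0.05 there were 1450 probe sets (9.46%), 774 higher and 676 lower in the deafferented nucleus, and with the arrays unmatched there were 597. Probe sets of 1 gene did not always move alike. Of the 605 named probe sets that were lower at this level, 59.5% were not the brightest probe set of their gene, compared with 28.6% of the 721 that were higher and 37.0% of all kept ones. Counted by gene, 5.80% of the 8886 genes were higher and 2.76% lower at that level. The genes below are given by their values, since none but Uhrf1 was called.

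The next genes by p among those higher in all 3 pairs were led by genes of phagocytes. Plek, which encodes pleckstrin, a signalling protein of myeloid cells and platelets, was at 5.76, 5.73 and 4.73 in the controls and 6.61, 6.58 and 6.06 in the deafferented arrays. It was higher by about the same amount in the first 2 pairs and by more in pair 3, whose control was below background. The difference was 1.01 ± 0.200 (adjusted p = 0.269), and a second, dimmer probe set of Plek gave 1.25. Ly86, which encodes the MD-1 protein that binds a toll-like receptor homologue on immune cells, was at 7.29, 7.39 and 7.37 in the controls and 8.16, 8.65 and 8.0 in the deafferented arrays. The controls lay close together and the deafferented arrays all above them, with a difference of 0.92 ± 0.199 (adjusted p = 0.326).

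Casp8ap2, a nuclear protein linked to histone gene expression and S phase, was at 5.43, 5.36 and 5.58 in the controls and 6.04, 6.40 and 6.23 in the deafferented arrays. The sides did not overlap, and the difference was 0.77 (adjusted p = 0.326). The others, each with an adjusted p of 0.326, were Emp2, Limd2, Dmkn, Tm9sf2, Fmod and Atp9b, with differences of 0.47 (Tm9sf2) to 0.92 (Fmod). Dimmer probe sets gave -0.10 and -0.03 for Emp2, 0.13 for Limd2 and -0.02 to 0.89 for Fmod. The Dmkn controls were below background, at 4.33 to 4.46.

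Among genes lower in all 3 pairs, none of which passed, the smallest p belonged to Tle5, a transcriptional corepressor of the Groucho family. Its controls were at 10.56, 10.43 and 9.54 and its deafferented arrays at 10.18, 10.04 and 8.98. The deafferented array was the lower in each pair, but the replicate 3 arrays lay below all others and the sides overlapped. The difference was -0.45 ± 0.0955 (adjusted p = 0.326). Syt11, a synaptotagmin of vesicle traffic, was at 11.26, 11.65 and 9.79 in the controls and 11.11, 10.76 and 8.92 in the deafferented arrays, a difference of -0.63 with the same low replicate 3 on both sides, but its other probe sets gave -0.04 and -0.10.

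Mapk8ip1, the JIP1 scaffold of the JNK pathway, was at 10.51, 10.47 and 9.49 and then 10.09, 10.11 and 8.70, a difference of -0.52. Epop, Adam11, Magi3, B3galt1, Sult4a1, Ifngr2 and Fxr2 completed the list, with differences of -1.10 (Sult4a1) to -0.40 (Fxr2) and adjusted p of 0.326 to 0.336. A dimmer probe set of Ifngr2 gave -0.0017. B3galt1 was at 3.74 to 5.01, above the background limit in control 3 alone.

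**Figure D2:**
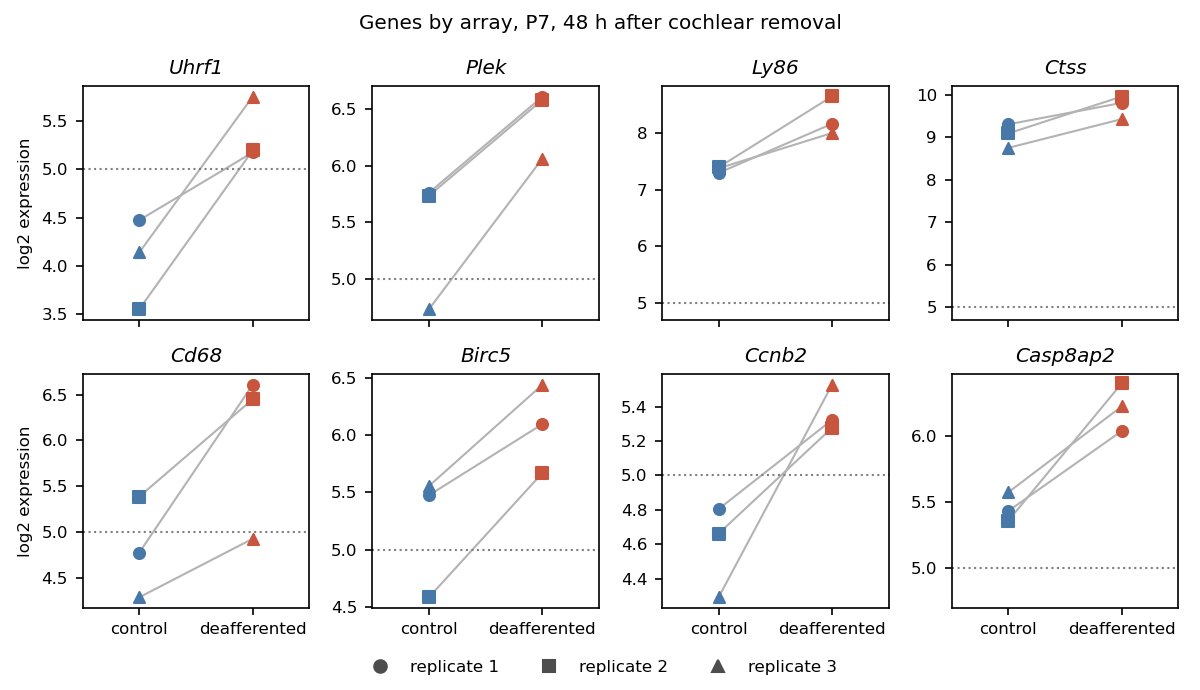
Log2 expression of 8 genes in the 6 arrays of P7 48 h, with control arrays in blue and deafferented arrays in red, grey lines joining arrays of the same replicate number, and the background limit of log2 5 dotted. Each vertical axis has its own range. All 8 genes were higher on the deafferented side in all 3 pairs, and only Uhrf1 passed the test.

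Markers of microglia and macrophages stood highest among the glial lists, although no member was called. Of 25 measured genes 13 were higher in the deafferented nucleus in all 3 pairs (52.0%, against 16.9% of all genes) and 1 was lower in all 3. In 8 the sides did not overlap and the deafferented side was higher (32.0%, against 5.99% of all genes), and 9 reached an unadjusted p under 0.05, all higher. The median difference was 0.44, and it was 0.50 in pair 1, 0.42 in pair 2 and 0.05 in pair 3. The summed level of the list's genes lay between log2 11.90 and 11.95 in the controls and between 12.19 and 12.53 in the deafferented arrays. In a tissue extract, more cells of a type and more RNA per cell cannot be told apart.

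Ctss, the lysosomal protease cathepsin S of microglia, was at 9.30, 9.09 and 8.75 in the controls and 9.81, 9.96 and 9.43 in the deafferented arrays. The sides did not overlap, and the difference was 0.68 ± 0.180 (adjusted p = 0.326). Lyz2, the lysozyme of macrophages, was at 7.19, 6.71 and 6.75 and then 7.72, 8.30 and 7.14, so that the deafferented array of replicate 3 lay below the control of replicate 1, and the difference was 0.84 (adjusted p = 0.354). Fcgr3, an Fc receptor, was at 6.32, 6.56 and 6.58 and then 7.02, 7.75 and 6.59, with nearly all of its difference of 0.63 in pairs 1 and 2.

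The adaptor Tyrobp, at 7.69, 7.90 and 7.61 and then 8.46, 8.51 and 8.05, did not overlap between sides and differed by 0.61 (adjusted p = 0.417). Genes that mark resident microglia in the uninjured brain gave a range of values. Cx3cr1, the fractalkine receptor, gave -0.02, Csf1r, the receptor for colony-stimulating factor, 0.22, Tmem119 0.25 and Aif1, which encodes the microglial protein IBA1, 0.20. P2ry12, the purinergic receptor of surveying microglia, gave 0.66 with low replicate 3 arrays on both sides, at 4.77 and 5.91. None of these 5 was called. Of the markers on the array, 7 of 30 were below background in all 6 arrays, among them Itgam and Tlr2.

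Genes of phagocytosis and the lysosome gave a smaller shift. Of 21 measured, 13 were higher in all 3 pairs (61.9%, against 16.9% of all genes) and 8 were higher at an unadjusted p under 0.05, with a median of 0.31 and pair medians of 0.33, 0.23 and 0.10. Cd68, a lysosomal membrane protein of phagocytes, was at 4.78, 5.39 and 4.29 in the controls and 6.61, 6.45 and 4.93 in the deafferented arrays. The deafferented arrays of replicates 1 and 2 lay well above every control, while that of replicate 3 was below background and within the range of the controls. The difference was 1.18 ± 0.374 (adjusted p = 0.372).

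Grn, which encodes the lysosomal growth factor progranulin, differed by 0.34, the protease Ctsb by 0.27 and the sterol carrier Npc2 by 0.31, with adjusted p of 0.397 to 0.425. Trem2, a receptor through which microglia sense lipids and debris, gave -0.33. Of the 8 measured complement genes all had a difference above 0 (against 56% of all genes), with a median of 0.24, and none was called. Of these 8, 3 were higher in all 3 pairs (37.5%, against 16.9% of all genes) and none lower. C1qc, a chain of the first complement component, was at 7.41, 7.49 and 7.0 and then 8.04, 8.41 and 7.18. Its difference of 0.57 (adjusted p = 0.416) lay mostly in pairs 1 and 2, and that of its partner chain C1qa was 0.23. The 3 probe sets of the chain C1qb gave 0.25, 0.47 and 0.52, none of them called.

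Reactive astrocyte genes gave a median of 0.15 over 23 measured, and none was called. In all 3 pairs 7 were higher (30.4%, against 16.9% of all genes) and 3 lower (13%, against 10.4%). Gfap was at 10.32, 10.05 and 8.46 in the controls and 10.32, 11.12 and 8.97 in the deafferented arrays. The replicate 3 arrays were the lowest of each side, pair 1 was level and pair 2 was apart by over 1 log2 unit. The difference was 0.53 ± 0.172 (adjusted p = 0.376). Cd44, the hyaluronan receptor, was at 5.16, 5.71 and 5.41 and then 5.93, 6.02 and 6.65, which did not overlap, with a difference of 0.77 (adjusted p = 0.326), while a second and dimmer probe set of Cd44 gave -0.10. Socs3, an inhibitor of cytokine signalling, and Osmr, the receptor for oncostatin M, gave 0.57 and 0.68, and 8 of the 27 reactive astrocyte genes on the array, among them Timp1 and Ptgs2, were below background in all 6 arrays.

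Cell division genes, to which the role of Uhrf1 is related, gave a median of 0.24 over 28 measured, with pair medians of 0.28, 0.14 and 0.25. Of these, 14 were higher in all 3 pairs (50.0%, against 16.9% of all genes) and 1 was lower in all 3. In 6 the sides did not overlap with the deafferented side higher (21.4%, against 5.99% of all genes), and none was called. Birc5, which encodes survivin, a protein of the mitotic chromosome passenger complex, was at 5.47, 4.58 and 5.55 in the controls and 6.09, 5.67 and 6.44 in the deafferented arrays. The replicate 2 arrays were the lowest of each side, the sides did not overlap, and the difference was 0.86 ± 0.224 (adjusted p = 0.326). Ccnb2, cyclin B2 of the G2 to M transition, was at 4.80, 4.66 and 4.29 and then 5.32, 5.28 and 5.53, with the controls below background and the deafferented arrays above it, a difference of 0.79 (adjusted p = 0.326).

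Cdc20, an activator of the anaphase-promoting complex, was at 6.93, 5.97 and 7.05 and then 7.74, 6.84 and 7.56, which overlapped through the low replicate 2 arrays, a difference of 0.73. Mcm7, a subunit of the replicative helicase, gave 0.45, Smc2, a condensin subunit, 0.46 and Mki67, a marker of cycling cells, 0.53. Aurkb, the kinase of the complex that also holds survivin, went the other way at -0.37 and was lower in all 3 pairs. At P7 24 h the median of the list was -0.02 and at P21 48 h it was 0.12.

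**Figure D3:**
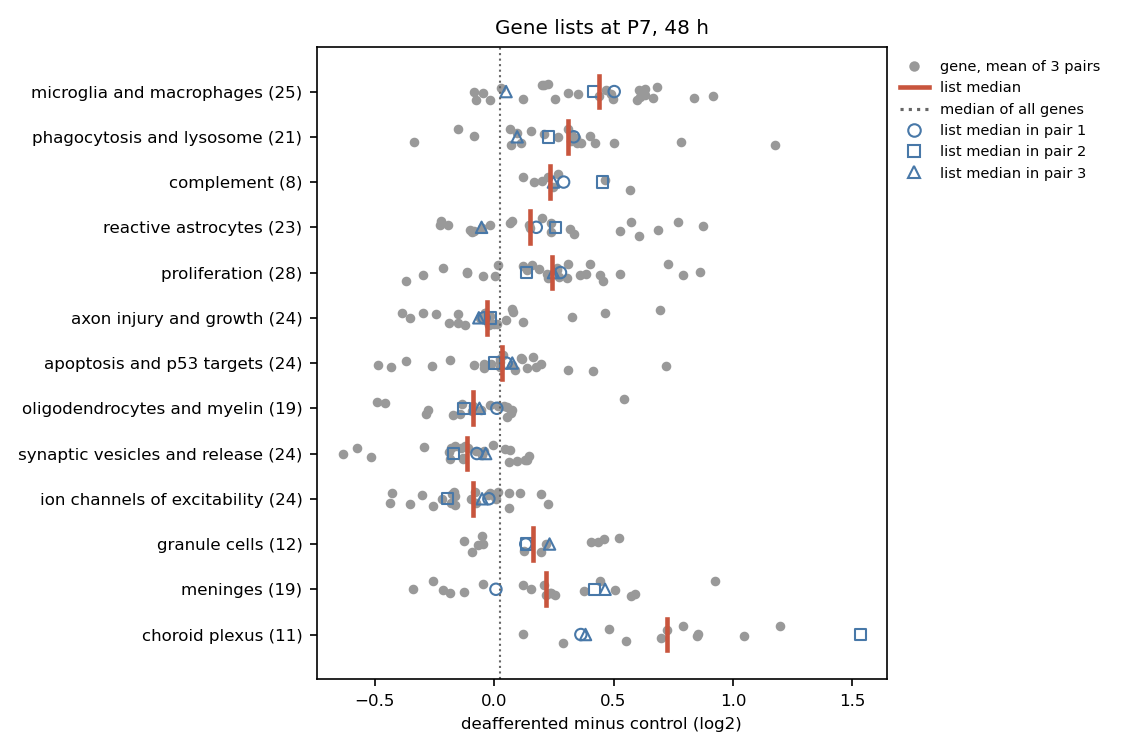
Deafferented minus control (log2) at P7 48 h for the genes of 13 lists, with the number of measured genes after each name. Grey points are genes (mean of 3 pairs, spread vertically at random), red bars list medians, blue open symbols the list's median in each pair, and the dotted line the median of all genes, 0.03. The microglial list has its median at 0.44 with pair 3 at 0.05, and the choroid plexus list has its median at 0.73 with pair 2 at 1.53.

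Markers of choroid plexus and meninges, which border the nucleus, and of granule and Purkinje-type cells were measured as well, and none was called. Of 11 measured markers of the choroid plexus, the secretory epithelium of the ventricles that lies against the nucleus, all had a difference above 0, and 9 were higher in all 3 pairs (81.8%, against 16.9% of all genes), but in none of the 11 were the sides free of overlap. Their median was 0.73, the largest of the 33 lists, with 1.53 in pair 2 against 0.36 and 0.38 in pairs 1 and 3. Kl, which encodes the epithelial protein klotho, was at 7.53, 5.18 and 5.53 in the controls and 7.84, 7.54 and 6.45 in the deafferented arrays. Control 1 was as high as deafferented array 2, the sides overlapped, and the difference of 1.20 ± 0.837 was not called (adjusted p = 0.659). Ttr, the transthyretin of this epithelium, was at 14.19 to 15.06 in all 6 arrays and differed by 0.12.

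No choroid plexus gene reached an unadjusted p under 0.05, and the summed level of the list was log2 14.28 to 15.06 in the controls and 14.82 to 15.14 in the deafferented arrays. Markers of the meninges gave a median of 0.22 over 19 genes, with 0.01, 0.42 and 0.46 in the 3 pairs. Fmod, the matrix protein fibromodulin, was at 6.34, 6.40 and 7.29 and then 6.96, 7.48 and 8.36, a difference of 0.92. The list of Purkinje-type cells gave a median of 0.18 over 8 genes, with -0.04 in pair 2 and 6 genes higher. This list had 3 genes higher in all 3 pairs (37.5%, against 16.9% of all genes) and none lower. Its largest value was that of Pcp2, which was at 6.90, 5.99 and 6.06 and then 8.14, 7.35 and 7.05, which did not overlap, a difference of 1.20 (adjusted p = 0.475). The granule cell list gave a median of 0.16 over 12 genes, with Neurod1, a transcription factor of granule neurons, at 0.46. Of the 12, 6 were higher in all 3 pairs (50.0%, against 16.9% of all genes) and none lower. In 3 the sides did not overlap with the deafferented side higher (25.0%, against 5.99% of all genes). Whether the granule and Purkinje-type values come from the nucleus itself or from neighbouring tissue was not tested. Whether the amount of neighbouring tissue in the pools bears on the glial and cell division values was not tested either.

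Genes of axon injury and growth gave no shift upward. None of the 24 measured was called, and the median was -0.03. In all 3 pairs 3 were higher (12.5%, against 16.9% of all genes) and 7 lower (29.2%, against 10.4%). Sox11, a transcription factor of immature and regenerating neurons, was at 4.62, 4.47 and 5.72 in the controls and 5.40, 4.69 and 6.81 in the deafferented arrays, a difference of 0.70 (adjusted p = 0.385) with overlapping sides. Gadd45a, a stress gene, was at 6.56, 6.69 and 6.58 and then 7.54, 7.29 and 6.40, higher in pairs 1 and 2 and lower in pair 3. Atf3, the transcription factor that marks injured neurons, was below background in all 6 arrays, with a difference of -0.04 that turned positive under another scaling, and Gap43, a protein of growing axons, gave -0.02.

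Genes of cell death and p53 targets had a median of 0.03 over 24 measured, and none was called. Fas, a death receptor, gave -0.49, Perp, a p53 target, 0.72, Bcl2, which protects against apoptosis, -0.37 and Cdkn1a, the p21 inhibitor of the cell cycle, 0.09, while Bax was not analysed here. Immediate early genes had a median of -0.05 over 21 measured, with Fos at -0.06, Egr1 at 0.08 and Jun at 0.08. Homer1, a scaffold protein of glutamate synapses with activity-dependent transcripts, was at 6.06, 6.19 and 6.30 and then 5.94, 5.34 and 5.55, lower on the deafferented side without overlap by -0.58 (adjusted p = 0.437). Igf1, a growth factor of microglia and neurons, gave 0.16.

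Genes of synaptic vesicles and release leaned lower on the deafferented side. Their median was -0.11 over 24 measured, 8 were lower and 1 higher in all 3 pairs (33.3% lower, against 10.4% of all genes), and none was called. The 3 at an unadjusted p under 0.05 were all lower, namely Syt11, Sncb, which encodes beta-synuclein, at -0.51, and Rab3a, the GTPase of synaptic vesicles, at -0.29. Rab3a was at 11.35, 11.41 and 10.66 in the controls and 11.25, 11.02 and 10.27 in the deafferented arrays, so the pairs agreed while the sides overlapped. Ion channels of excitability had a median of -0.09 over 24 measured. In all 3 pairs 4 were lower (16.7%, against 10.4% of all genes) and none higher. Kcnc1, a potassium channel of fast-firing auditory neurons, gave 0.20. Myelin genes had a median of -0.09 over 19. Of these, 6 were lower in all 3 pairs (31.6%, against 10.4% of all genes) and none higher. Mbp, myelin basic protein, was at 14.22 to 14.45 in all 6 arrays.

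The P7 effect at 48 h was then set against that at 24 h. At 24 h 165 probe sets were called (1.08%), and the difference between the effects, 48 h minus 24 h, was called in 90 (0.587%), 28 with a higher and 62 with a lower effect at 48 h. In all 90 the effects at the 2 times had opposite signs, and 38 of the 62 and 13 of the 28 were themselves called at 24 h. No call remained with the arrays unmatched, where the smallest adjusted p was 0.198, and the replicate numbers of 24 h do not pair the arrays (lowest correlation of same-numbered deviations -0.00178). Without replicate 3 of 48 h 0 were called, without replicate 2 there were 4 calls, of which 3 were among the 90, and without replicate 1 there were 342. Leaving out the 24 h pairs in turn gave 6 without pair 1, 1057 without pair 2 and 21 without pair 3.

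Genes with a higher effect at 48 h were led by Rbp4, which encodes the plasma carrier of retinol. Its effect was -1.38 at 24 h and 1.09 at 48 h, where its levels were 3.28, 3.72 and 5.0 in the controls and 4.72, 4.61 and 5.92 in the deafferented arrays. Of these 6 values that of 5.92 alone lay clearly above background. The effect of Fmod went from -0.90 to 0.92, that of Slc47a1, an organic cation exporter, from -0.92 to 0.44, and that of Dmkn from -0.49 to 0.81. Dimmer probe sets of Fmod gave differences between the times of 0.16 to 1.16, none of them called. Amn, Tpd52l1, Cetn2, a centrosomal centrin, and the peptidase Cpq completed the rule's list. At 48 h Amn was below background in all 6 arrays. It was at 2.52, 4.57 and 3.49 in the controls and 4.74, 4.23 and 4.70 in the deafferented arrays, lower in pair 2. Dimmer probe sets of Cetn2 and Cpq gave differences between the times of 0.55 and -0.02, neither of them called. Fmod and Slc47a1 are members of the meningeal list.

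Marker lists of neighbouring tissue also had medians of opposite sign at the 2 times. The choroid plexus list went from a median of -0.61 at 24 h to 0.73 at 48 h, and the meningeal list from -0.22 to 0.22. By pair, the choroid plexus medians at 24 h were -1.50, -0.98 and 0.64, so that pair 3 went against the other two, while the effects of Rbp4 and Fmod were below 0 in all 3. No choroid plexus gene and 2 of 19 meningeal genes were called higher in the difference (10.5%, against 0.203% of all genes). The part of neighbouring tissue in it was not tested.

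Among brightest probe sets, genes with a lower effect at 48 h were led by Atrx, a chromatin remodeller. Its effect was 1.31 at 24 h and -0.87 at 48 h. Its levels at 48 h were 6.86, 6.05 and 5.95 in the controls and 6.08, 5.75 and 4.42 in the deafferented arrays, lower in every pair with overlapping sides, and its 4 dimmer probe sets gave -0.40 to 0.11 at that time. The axon guidance proteins Sema6a and Sema6d went from 1.12 to -0.79 and from 0.98 to -0.60. The calcium channel subunit Cacna2d1 went from 1.10 to -0.43, the nicotinic receptor subunit Chrna4 from 0.74 to -0.68 and the myelin tetraspanin Tspan2 from 0.77 to -0.49. A dimmer probe set of Cacna2d1 went the other way, from 0.23 to 0.79. Lats1, a kinase of the Hippo pathway, and the phosphatase Ptprg had their effect mostly at 24 h, at 1.26 and 0.93 against -0.12 and -0.39. At 48 h Lats1 was below background in all 6 arrays, at 3.68 to 4.02, and its effect changed sign under another scaling.

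The myelin list went from a median of 0.38 at 24 h, where the pairs gave 0.92, 0.07 and 0.15, to -0.09 at 48 h. Of its 19 genes, represented by their brightest probe sets, Tspan2 alone was called lower in the difference (5.26%, against 0.124% of all genes), while over all 35 of its probe sets 8 were, of 6 genes (against 0.405% of all probe sets).

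Most of the lower calls came from the dimmer probe sets of their genes. Of 58 named probe sets with a lower effect at 48 h, 47 (81.0%) were not the brightest of their gene, compared with 37.0% of all kept ones. The median difference of the 47 was -1.47, while the brightest probe sets of the same genes had a median of -0.14 and 3 of them were called. Mbp is an example, where 1 of 8 probe sets gave -0.74 at 48 h and the other 7 lay between -0.06 and 0.08. Of the 28 higher calls 35.7% were probe sets of a type that can bind related transcripts, against 7.72% of all kept ones.

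**Figure D4:**
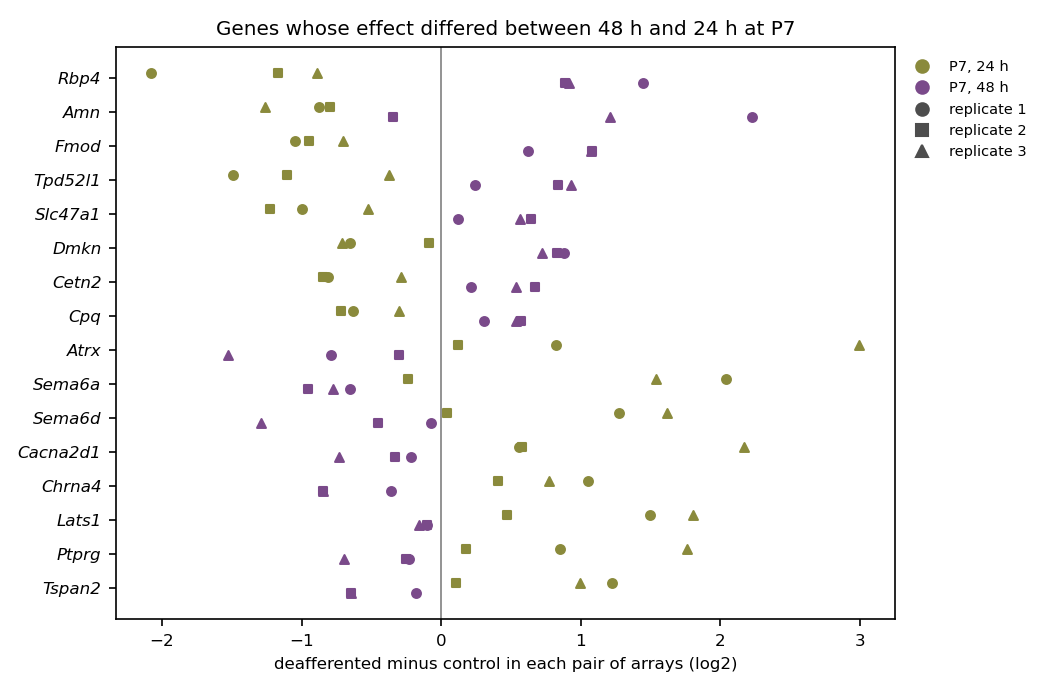
Deafferented minus control (log2) in each pair of arrays at P7 24 h (olive) and P7 48 h (purple) for 16 genes, with shapes for the replicate number. They have the largest called differences between the times among genes represented by their brightest probe set. Genes such as Rbp4 and Fmod lie below 0 in each pair of 24 h and above 0 in each pair of 48 h, and genes such as Chrna4 and Tspan2 show the reverse.

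At P21 the same interval gave 104 called probe sets (0.679%), 69 higher and 35 lower. The difference between the 48 h effects of the ages was called in 2 probe sets (0.0131%), of 2 genes (0.0225% of genes), both with the larger effect at P21. Mapk13, the p38 delta kinase, was at 4.63, 4.67 and 4.81 in the P7 controls and 4.64, 4.43 and 4.74 in the P7 deafferented arrays, all below background. Its effect was -0.10 at P7 and 1.93 at P21, a difference of 2.03 (adjusted p = 0.000265). Sprr1a, a gene of regenerating sensory neurons, was likewise below background in all P7 arrays of 48 h, at 3.84 to 4.57 and 3.62 to 3.92. Its effect was -0.30 at P7 and 1.88 at P21, a difference of 2.17 (adjusted p = 0.0213), and the adjusted p was 0.0695 without replicate 1 of P7, 0.200 without replicate 3 of P7, and 0.186 and 0.115 without P21 replicates 1 and 2.

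Of the axon injury list, none was called at P7, where 0.0113% of all genes were called higher. At P21 5 of its 24 genes were called, all higher (20.8%, against 0.540% of all genes, with 0.293% called lower). Besides Sprr1a these were Ecel1, Atf3, Gap43 and Gadd45a, and for these 4 the difference between the ages did not pass. For Ecel1, a peptidase of injured neurons, the effect was -0.03 at P7 and 1.82 at P21 (adjusted p of the difference 0.106), and its P7 levels were at most 2.82. The effects of Atf3 were -0.04 and 1.56, those of Gap43 -0.02 and 1.40 and those of Gadd45a 0.46 and 1.38. For Timp1, a protease inhibitor of reactive astrocytes, the effects were -0.02 and 2.52 (adjusted p of the difference 0.380).

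The microglial list had 13 of 25 genes called higher at P21 48 h (52.0%, against 0.540% of all genes). At P7 none was called, where 0.0113% of all genes were called higher. The medians were 0.89 at P21 and 0.44 at P7, and no member was called in the difference between the ages. Ly86 gave 1.54 at P21 and 0.92 at P7, Cd68 2.51 and 1.18, C1qa 1.17 and 0.23, and Gfap 1.32 and 0.53. In each of these the effect was larger at P21, and none of the differences passed.

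**Figure D5:**
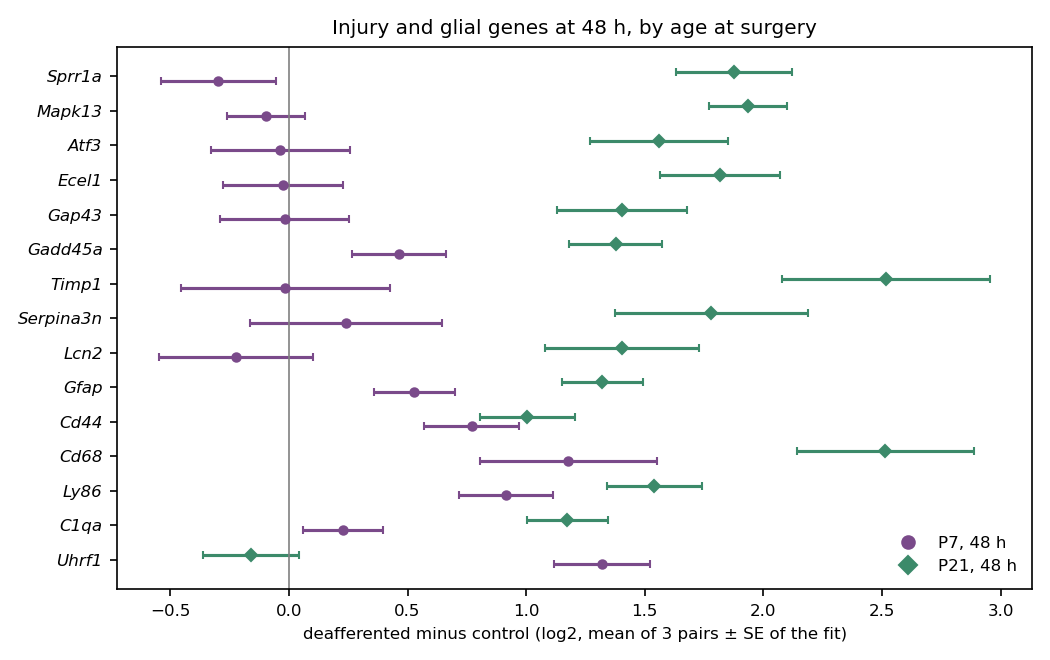
Deafferented minus control (log2, mean of 3 pairs, with the SE of limma's fit as bars) at 48 h for 15 injury and glial genes, with P7 in purple circles and P21 in green diamonds. Sprr1a and Mapk13, the 2 genes called in the difference between the ages, lie at -0.30 and -0.10 at P7 and at 1.88 and 1.93 at P21, while Uhrf1 lies at 1.32 at P7 and -0.16 at P21.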

How the data were processed

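The authors deposited 1 table of log2 values. Per the submitters' processing notes it was computed with GCRMA. The version, and whether the arrays were normalised jointly, are not given in the sources used here. Per the labels, nuclei were snap frozen and RNA was labelled with biotin. Probe sets were named through the platform table (20380 with 1 symbol, 691 with several, 1555 unnamed here).

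Effects were estimated by limma 3.58.1 (R 4.3.3) with each pair of same-numbered arrays as a block, 1 effect per age and time, and variances with a trend (14 residual and 7.15 prior degrees of freedom). P-values are two-sided. The pairing comes from the replicate numbers of the labels: at P7 48 h deviations of same-numbered arrays from their group means correlated with r of at least 0.23, above the limit of 0.1, although replicates 1 and 2 correlated as well across numbers. The fit was checked on simulated data.

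Genes named were the called ones and then the next by p up to 10 in each direction, the 8 largest called differences of each sign between times or ages, up to 4 of the smallest p per list, and 22 genes followed whatever their values, not all of which are reported here. All ranks used the brightest probe set of each gene. Further names (Tyrobp, Cx3cr1, Csf1r, Tmem119, P2ry12, Trem2, Itgam, Tlr2, Ptgs2, Serpina3n, Lcn2, Smc2, Mki67, Aurkb, Kl, Ttr, Pcp2, Ecel1, Timp1) were chosen after their values were seen. The 33 gene lists and the members were chosen with earlier results of these data known. The alternatives were the unmatched fit, fewer arrays, other filters, scalings and variances, and leaving out pairs. Leaving out pairs of P7 24 h or P21 48 h, and the unmatched fit without replicate 3, were added after seeing the data.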

Additional observations from a re-analysis of the deposited data

Results flagged for a closer look

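The P7 effect at 48 h differed from that at 24 h by a test of the difference itself (limma, adjusted p under 0.05 before rounding) in 90 probe sets. The 16 genes given here are the 8 largest of each sign among genes represented by their brightest probe set. Some dimmer probe sets had called differences beyond several of these, such as -2.93 for Hhip and 1.25 for Gna13. The effect was higher at 48 h by 2.46 for Rbp4, 2.01 for Amn, 1.82 for Fmod, 1.66 for Tpd52l1, 1.36 for Slc47a1, 1.30 for Dmkn, 1.12 for Cetn2 and 1.02 for Cpq. The 48 h effect minus the 24 h effect was -2.19 for Atrx, -1.91 for Sema6a, -1.58 for Sema6d, -1.53 for Cacna2d1, -1.43 for Chrna4, -1.38 for Lats1, -1.32 for Ptprg and -1.26 for Tspan2. In the same difference a dimmer probe set of Tspan2 gave -2.83 and a dimmer probe set of Cacna2d1 gave 0.56. Amn and Lats1 were below background in every P7 array of 48 h. All 16 calls are lost with the arrays unmatched.

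The 48 h effect was larger at P21 than at P7 by 2.17 for Sprr1a and by 2.03 for Mapk13, by a test of the difference between the ages.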

How the results depend on the processing

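The single call at P7 48 h fell to 0 without the replicate block, with the 6 or the 22 P7 arrays fitted alone, with a filter above log2 6 in 3 arrays, and without the replicate 3 arrays of 12 and 48 h, matched or not. It was 0 to 1 when single pairs were left out, and the 1 call without replicate 2 was Amn (change 1.72), not Uhrf1. Amn was below background in all 6 P7 arrays of 48 h. Of the 90 calls between 48 and 24 h, 0 were left in the unmatched fit (also without those replicate 3 arrays), in the 22 P7 arrays, and in the matched fit without those arrays; there were 3 with variances without a trend, 143 with the stricter filter, and 0 to 1057 when single pairs were left out. The 2 calls between the ages became 4 with no filter, 1 with the stricter filter, and 1 to 3 when single pairs were left out. Of the values of named genes under the alternatives, 163 lost their call and 0 of the called ones changed sign. Among 162 values that were not called, 20 changed sign under some alternative. The lists had 0 called members in the matched and unmatched fits and with each gene's most changed probe set. With that probe set, 24 of the 33 list medians moved by less than the standard deviation of their 3 pair medians. The other list medians moved by at least that much. The 3 arrays of each side limit what can be called, and signals below log2 5 are within background.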
